A study of Caenorhabditis elegans with 8 samples.

Results

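Aminoacyl-tRNA synthetases attach each amino acid to its transfer RNA, the step that supplies charged tRNA to the ribosome. Most animal cells carry separate enzymes for the cytosol and for the mitochondrion, encoded in the nucleus, although some genes serve both compartments. SKN-1 is the C. elegans relative of mammalian Nrf2 and a transcription factor known for stress defence and detoxification. The synthetase genes examined here are the protein-coding genes whose symbol is an amino acid letter followed by "ars" and a number. The pattern found 33 of the 19971 protein-coding genes of the 6 nuclear chromosomes, with all 20 amino acid letters represented. It also matched cars-2, which the gene table lists as a pseudogene and which was left out. By symbol, 20 members end in 1, 12 in 2 and 1 in 3. The ending is often taken to separate cytosolic (1) from mitochondrial (2) enzymes, but the gene table records no compartment. The ending is also not a safe guide in the worm, since fars-1 and fars-3 are the names of the alpha and beta subunits of the cytosolic phenylalanyl enzyme. Groups are therefore described by symbol only. No member lies on the X chromosome, and 10, 5, 6, 8 and 4 lie on chromosomes I, II, III, IV and V.

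Binding was measured by chromatin immunoprecipitation and sequencing of whole animals grown at 20°C on OP50 bacteria. WT animals carried SKN-1 tagged with green fluorescent protein (GFP), and in GF animals the tagged protein was SKN-1gf(lax188), a gain-of-function form. For both genotypes there are 2 samples precipitated with a Chromotek GFP reagent, here called WT 1, WT 2, GF 1 and GF 2, and each sample has its own peak list. The 4 samples without antibody were not analysed here. Both genotypes share the tag, and the age of the animals, the promoter behind the tagged protein and the number of separate cultures are not given in the sources used here. Whole animals mix all tissues, so a peak cannot be assigned to a cell type. The lists held 15943, 29541, 25007 and 905 peaks in that order, and read depth is unknown. Every peak name in the WT 2 list carries the replicate 1 label of WT, so its identity rests on the sample record. A gene was counted as reached when a peak summit lay in it or within 1000 bp. Gene positions came from assembly WBcel235 and peak positions from build ce10, so distances between summits and genes are approximate.

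Nearly all synthetase genes were reached in the lists WT 2 and GF 1, mostly by peaks of modest fold. WT 1 reached 16 of the 33 (48.5%), against 47.3% of all other protein-coding genes. WT 2 reached 30 (90.9%), against 70.9%, and GF 1 reached 29 (87.9%), against 64.0%. GF 2 reached 4 (12.1%), against 5.45%, where 1 gene makes up 3.03% of the members. Synthetase genes are longer than most, with a median length of 3547 bp against 2004 bp for other genes, and a longer gene offers more room for a summit. Among other genes in the same classes of length, 54.0%, 77.6%, 71.2% and 5.39% were reached, in the order WT 1, WT 2, GF 1, GF 2, which also holds for other values given without list names. The members were thus below that share in WT 1 and above it in the other lists.

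Whether members exceeded other genes varied with the cut applied to the peaks. With a -log10 q of at least 5, WT 1 reached 9 members (27.3%), WT 2 26 (78.8%), GF 1 18 (54.5%) and GF 2 3 (9.09%). The shares of other genes were 27.9%, 54.3%, 45.7% and 3.11%, so that WT 2, GF 1 and GF 2 stayed above. The shares of other genes in this paragraph were not weighted to the members' gene lengths. Ranked by fold, the long lists fell below. Over the strongest 5000 peaks, 4 members were reached in WT 1 (12.1%), 4 in WT 2 (12.1%) and 6 in GF 1 (18.2%), against 19.8%, 20.2% and 20.6% of other genes. With each list shortened to its strongest 905 peaks, the length of GF 2, WT 1 and WT 2 reached no member, GF 1 reached 1 and GF 2 kept its 4. The shares of other genes were then 3.82%, 4.02%, 4.55% and 5.45%, and WT 1, WT 2 and GF 1 fell below. GF 2 holds only 905 peaks, so it was not shortened and its share repeats the full list. The GF 2 share fell below other genes under 3 of 15 settings: gene bodies only, the nearest gene only and a fold of at least 2. The only member reached by GF 1 at that length was iars-2. With 905 peaks ranked by -log10 q in place of fold, WT 1, WT 2 and GF 1 reached 0, 0 and 1 members. The shares of other genes were 3.55%, 3.53% and 4.09%, so these lists fell below by either ranking. These counts were given no test over the members, because the members were proposed with results of these data known.

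**Figure D1:**
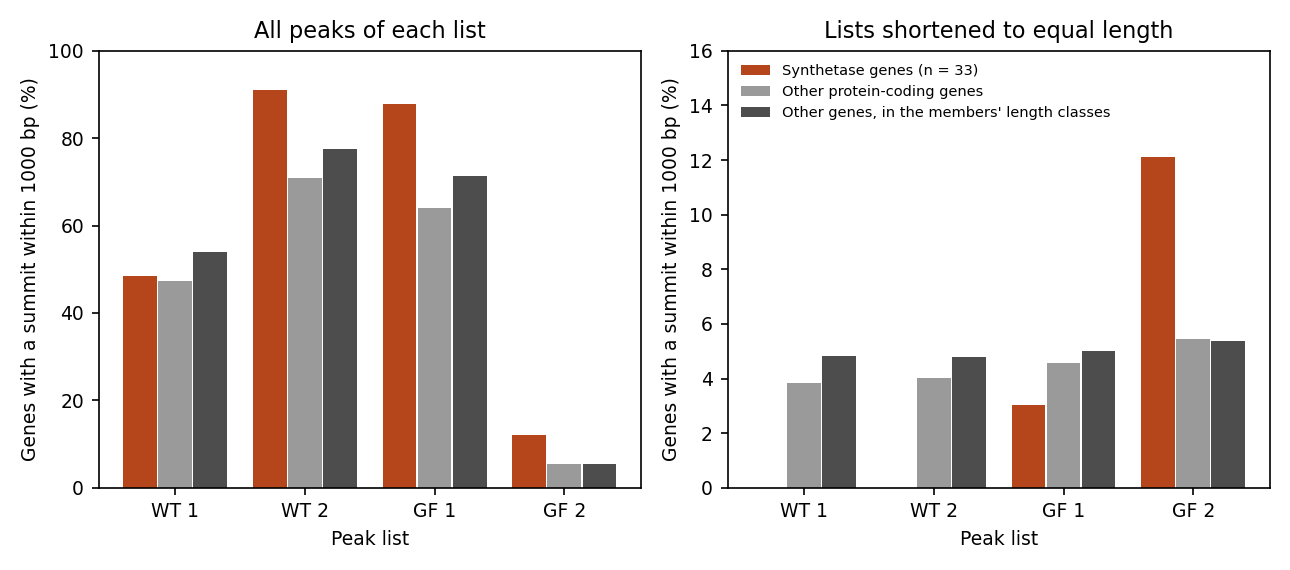
Share of genes with a peak summit in the gene or within 1000 bp (%, vertical axis) for synthetase genes, other protein-coding genes, and other genes in the members' length classes, by list. With all peaks (left) the synthetase bars stand at 90.9% and 87.9% in WT 2 and GF 1; with 905 peaks per list (right, smaller scale) they are at 0 in both WT lists.

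Fold enrichment, the authors' value for each peak over the caller's background, was modest at these genes. The highest fold per reached member had a median of 1.48 and 1.51 with WT and of 1.54 and 1.66 with GF. The same median over other reached genes was 1.51, 1.55, 1.63 and 1.54. In the 3 long lists the members lay below other genes. The 4 members of GF 2 lay above, a median of 4 values. Ranked within its own list, a member's strongest peak stood at a median percentile of 54.6, 58.9, 49.2 and 69.6, and that of other reached genes at 60.8, 66.1, 64.7 and 58.3. A fold of at least 2 was found at no member in WT 1, WT 2 or GF 2, and at 3 of the 29 members reached in GF 1 (10.3%). Among other reached genes, 3.75%, 6.31%, 12.7% and 8.46% had such a peak. Over all genes, reached or not, the order in GF 1 was reversed, with 9.09% of members and 8.14% of other genes. In WT 1, WT 2 and GF 2 the share of all other genes was 1.77%, 4.47% and 0.461%.

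**Figure D2:**
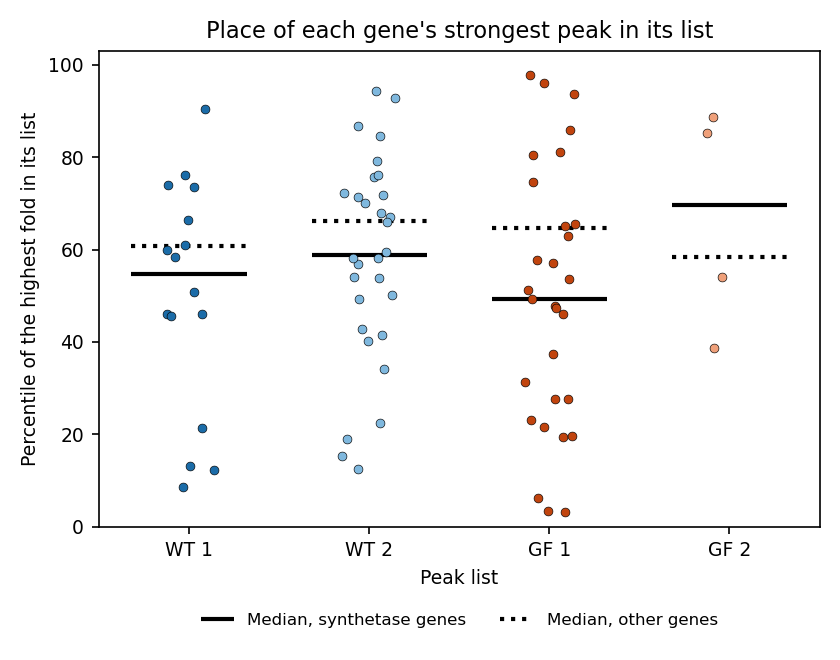
Percentile of each reached gene's strongest peak among the fold enrichments of its own list (vertical axis), by list; each point is a synthetase gene, solid lines mark their medians and dotted lines the medians of other reached genes. In WT 1, WT 2 and GF 1 the solid line lies below the dotted one, at 54.6, 58.9 and 49.2, while GF 2 has only 4 points.

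Asparaginyl-tRNA synthetase gene nars-1 was the only member with the same site in all 4 lists, a site being summits that follow each other within 200 bp. The summits lay 161 to 169 bp outside its end with the lower coordinate, at 7087861 to 7087869 on chromosome I. The peaks together spanned 7087721 to 7088554. Fold enrichment there was 1.73 (WT 1), 1.72 (WT 2), 2.16 (GF 1) and 1.53 (GF 2). The 4 summits therefore fell within a few bases of each other although the lists differ in length, and no other protein-coding gene lay within 1000 bp of them. The WT 1 value was the highest of any member in that list, and it ranked 1519th among 15943 peaks. The GF 1 value ranked 975th and the GF 2 value 417th in their lists. A second site inside nars-1 was called in WT 1, WT 2 and GF 1 at folds of 1.39, 1.41 and 1.47.

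Isoleucyl-tRNA synthetase gene iars-2 was reached in all 4 lists. Its highest fold was 1.45 (WT 1), 1.85 (WT 2), 2.32 (GF 1) and 1.80 (GF 2). Within their own lists these peaks stood at percentiles 46.0, 92.9, 97.7 and 85.2 by fold, below the middle in WT 1 and in the upper part of the other lists. The summits of WT 1, WT 2 and GF 1 lay 106 to 127 bp outside the end with the higher coordinate. That of GF 2 lay 592 bp outside it, in a broad peak at 10184399 to 10185409 on chromosome I. This broad peak also covered the summits of WT 1, WT 2 and GF 1. The called peaks of all 4 lists thus overlapped there, although the GF 2 summit was too far away to count as the same site. All 4 of these summits lay inside the neighbouring lectin gene clec-87 and so were nearer to it than to iars-2. GF 2 had a second peak 994 bp beyond the other end, inside the gene C25A1.16, with a fold of 1.58.

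Glutamyl-tRNA synthetase gene ears-2 was the third member reached in all 4 lists, but not at 1 place. It had folds of 1.57 (WT 1), 1.32 (WT 2), 1.45 (GF 1) and 1.85 (GF 2). The GF 2 value was the highest of any member in that list. The summits lay 994, 383, 620 and 619 bp from the gene in that order. Only the GF summits shared a site, and all 4 were nearer to or inside ssna-1 or T07A9.14. The share of other genes reached in all 4 lists was 3.84%, against these 3 members (9.09%). Histidyl-tRNA synthetase gene hars-1 was reached in WT 2 at a fold of 1.55, GF 1 at 1.45 and GF 2 at 1.47, and not in WT 1. The GF 2 summit lay inside its neighbour rbm-22, 377 bp away, while those of WT 2 and GF 1 lay inside hars-1.

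Except at nars-1, GF 2 thus reached the synthetase genes by summits nearer to a neighbouring gene. Of its 5 summits at members none lay inside a member, and only the summit at nars-1 had a member as its nearest gene. Among other genes, 48.1% of the pairs of gene and summit in GF 2 were inside the gene and 60.8% were with the nearest gene. In the long lists most summits at members lay inside the gene. A summit inside the member made up 16 of 23 pairs in WT 1 (69.6%), 58 of 72 in WT 2 (80.6%) and 45 of 58 in GF 1 (77.6%). For other genes these shares were 70.0%, 69.8% and 70.5%, while gene bodies made up 67.6% of the members' windows and 61.4% of the windows of other genes. Summits per kb of gene and window numbered 0.113 at members and 0.163 at other genes in WT 1. They numbered 0.353 and 0.313 in WT 2, and 0.284 and 0.262 in GF 1.

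**Figure D3:**
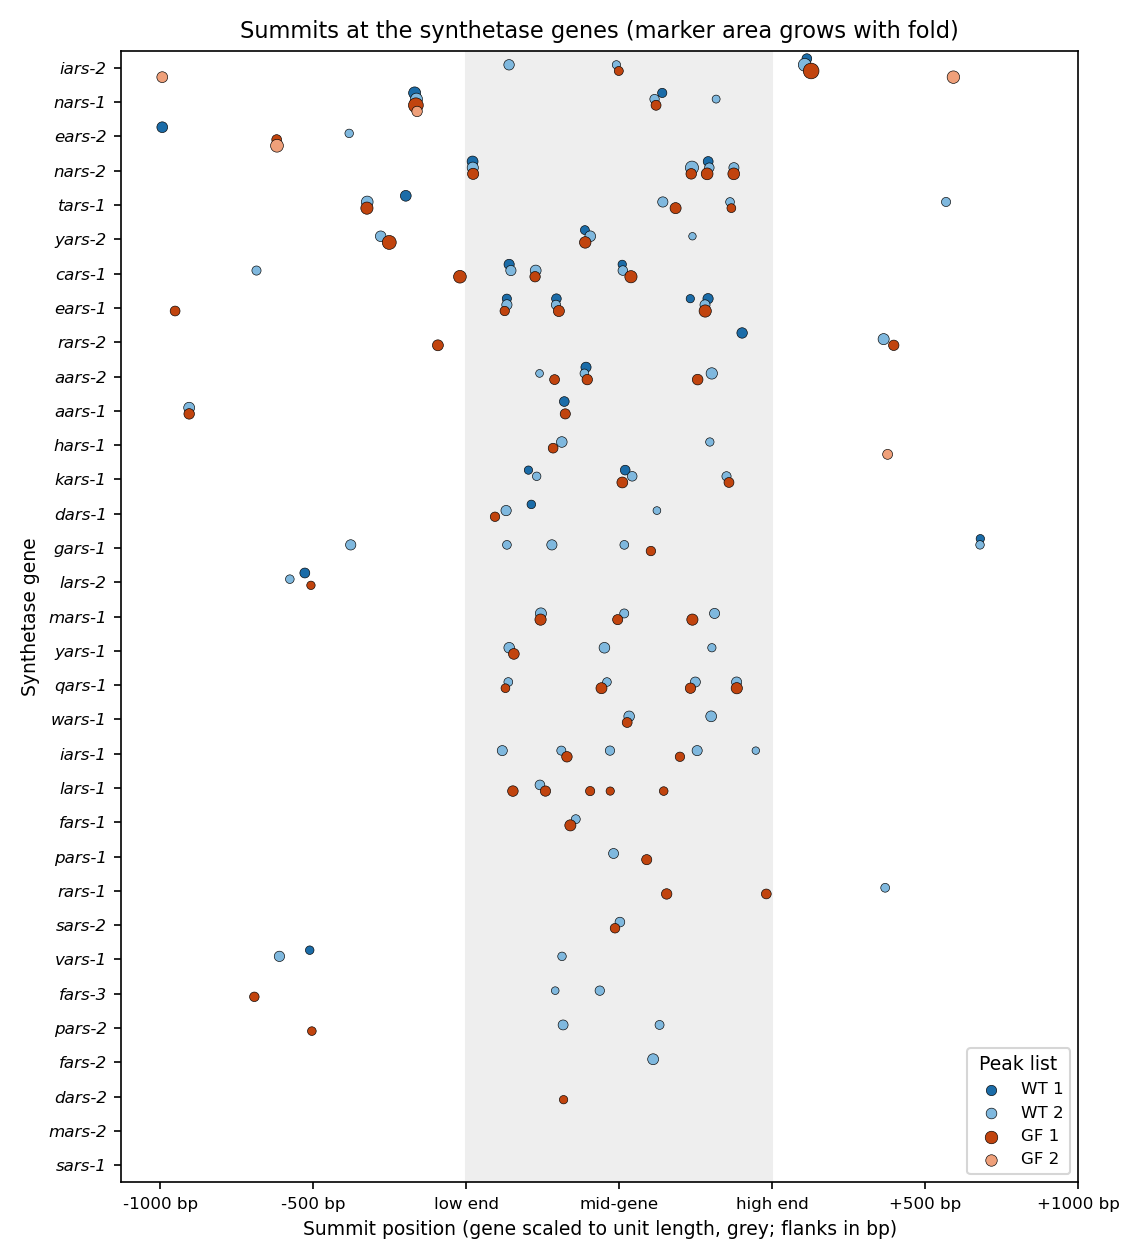
Position of every summit at the synthetase genes (rows), with each gene scaled to unit length (grey) between its ends of lower and higher coordinate and the flanks in bp; colour gives the list and marker area grows with fold. The summits of 4 lists line up at nars-1, 161 to 169 bp outside its low end, and none of the 5 GF 2 summits lies in a grey gene body.

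In addition to these 3, 12 members were reached in WT 1, WT 2 and GF 1 but not in GF 2. They were cars-1, aars-2, lars-2, ears-1, rars-2, kars-1, aars-1, tars-1, gars-1, dars-1, nars-2 and yars-2. Counting both sets, the 3 long lists shared 15 members (45.5%), against 41.4% of other genes. Asparaginyl gene nars-2, at 12393 bp the longest member, had its highest fold at 1.58 in WT 1, 1.90 in WT 2 and 1.70 in GF 1. Its WT 2 value was the highest of any member in that list. The summits of its WT 2 and GF 1 maxima lay inside nars-2 and also inside the gene Y66D12A.24. A site near one end of nars-2, at 11488470 to 11488783 on chromosome III, was called in these 3 lists at folds of 1.58, 1.62 and 1.62. Threonyl gene tars-1 had folds of 1.57, 1.69 and 1.76 at a site 198 to 325 bp outside the gene, at 11690767 to 11691360 on chromosome II. Those summits lay inside kel-1, which spans the place. Tyrosyl gene yars-2 reached 1.36 in WT 1, 1.56 in WT 2 and 2.02 in GF 1, but not at the same place. The GF 1 summit, 252 bp outside the gene, lay inside cif-1, at a site where WT 2 had 1.55 and WT 1 no summit. The WT maxima lay at a site inside yars-2, where GF 1 had 1.66. Cysteinyl gene cars-1 had its GF 1 maximum of 1.83 only 21 bp outside the gene, in Y23H5A.2, and its WT maxima, 1.50 and 1.58, lay at other places.

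Glutamyl gene ears-1 held 3 sites called in WT 1, WT 2 and GF 1, all inside the gene. The strongest in WT 1 and GF 1, at 10339349 to 10340612 on chromosome I, had folds of 1.51, 1.48 and 1.76. In WT 2 the site at 10336675 to 10337268 was higher, at 1.50. Alanyl gene aars-2 had folds of up to 1.50 in WT 1, 1.64 in WT 2 and 1.55 in GF 1, and arginyl gene rars-2 of up to 1.53, 1.61 and 1.59. Lysyl gene kars-1 (1.45, 1.44 and 1.58) and aspartyl gene dars-1 (1.32, 1.51 and 1.42) carried their shared site inside the gene. Leucyl gene lars-2 was reached 508 to 577 bp outside the gene and inside spe-4, with folds that never passed 1.47. Alanyl gene aars-1 reached 1.45, 1.59 and 1.54, and glycyl gene gars-1 1.30, 1.51 and 1.41. The aars-1 maximum lay inside the gene in WT 1 and 906 bp outside it in WT 2 and GF 1. Those of gars-1 lay 680 bp (WT 1) and 378 bp (WT 2) outside opposite ends and inside the gene (GF 1). The rars-2 maxima also lay at different places. None of aars-1, gars-1 and rars-2 had a site in 3 lists. At aars-2 the WT 1 maximum lay apart from those of WT 2 and GF 1.

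The largest remaining set was 12 members reached in WT 2 and GF 1 but in neither WT 1 nor GF 2 (36.4%), a pattern shown by 15.9% of other genes. These were fars-1, pars-2, yars-1, fars-3, lars-1, rars-1, pars-1, sars-2, iars-1, mars-1, qars-1 and wars-1, all but pars-2, fars-3 and sars-2 with a symbol ending in 1. Their highest folds ran from 1.35 at rars-1 to 1.61 at mars-1 in WT 2, and from 1.33 at pars-2 to 1.63 at mars-1 and qars-1 in GF 1. Glutaminyl gene qars-1 had 4 summits in each of these lists, and all 4 sites matched between them. Methionyl gene mars-1 had 3 summits in each list, and 2 of its sites matched. Isoleucyl gene iars-1 had 5 summits in WT 2 and 2 in GF 1, and leucyl gene lars-1 had 1 and 5. The nearest WT 1 summit to these 12 genes lay between 1860 bp (pars-2) and 27407 bp (pars-1) away.

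Valyl gene vars-1 was the only member that both WT lists and neither GF list reached, a pattern of 2.72% of other genes. Its folds were 1.32 and 1.52, with WT 1 and WT 2 summits 512 and 611 bp outside the gene, inside oma-2. The nearest GF 1 summit lay at 1025 bp, 25 bp beyond the window. No member was reached by both GF lists and neither WT list, a pattern of 0.100% of other genes. Phenylalanyl gene fars-2 was reached only in WT 2 (1.58), a pattern of 9.56% of other genes. Aspartyl gene dars-2 was reached only in GF 1 (1.30), a pattern of 4.15% of other genes. The dars-2 peak was among the weakest of its list, at percentile 3.14 by fold and a -log10 q of 1.86. Methionyl gene mars-2 and seryl gene sars-1 had no summit in any list, against 21.8% of other genes. The nearest summits to mars-2 lay 1226 bp away in GF 1 and 1230 bp in WT 2, and that to sars-1 1359 bp in WT 2. On the inner side of the window the closest were ears-2 in WT 1 at 994 bp, aars-1 in WT 2 at 906 bp and fars-3 in GF 1 at 693 bp.

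**Figure D4:**
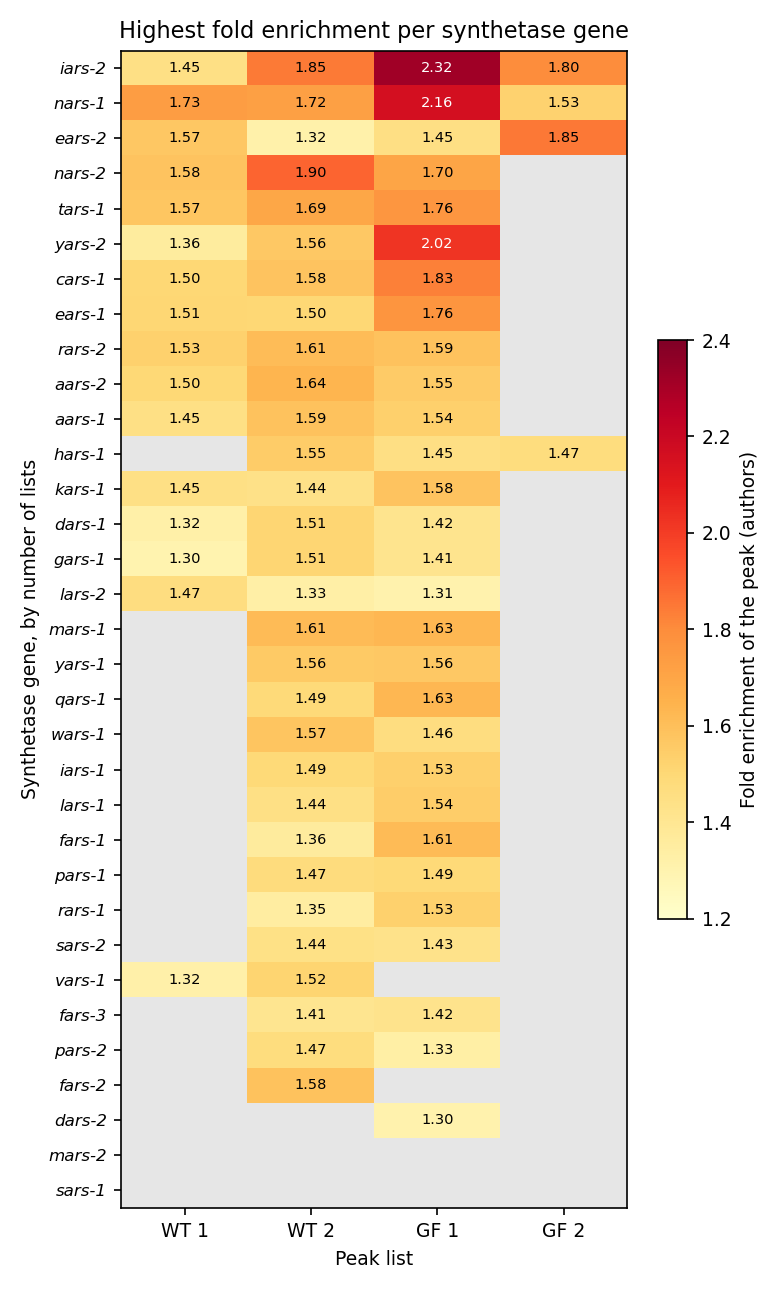
Highest fold enrichment (authors' value, colour and number) of a peak with its summit in or within 1000 bp of each synthetase gene (rows, by number of lists) in each list (columns); grey means no summit. WT 2 and GF 1 fill 30 and 29 of the 33 rows, GF 2 fills 4, and values above 2 stand only in GF 1, at iars-2, nars-1 and yars-2.

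Members were also counted by the ending of their symbol. Of the 20 genes ending in 1, the WT lists reached 9 and 19 and the GF lists 18 and 2. Of the other 13, the WT lists reached 7 and 11 and the GF lists 11 and 2. Of genes other than the synthetases, the WT lists reached 47.3% and 70.9% and the GF lists 64.0% and 5.45%. Members reached in all 3 long lists were 8 ending in 1 and 7 of the others, against 41.4% of genes other than the synthetases. Each set held 1 of the 2 members without a summit in any list, against 21.8%. Median gene length was 3581 and 3437 bp. The difference was not tested.

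At the level of single sites, members had 96 sites over the 4 lists, of which 1 was in 4 lists, 14 in 3, 31 in 2 and 50 in 1. The 15 sites in 3 or more lists belonged to 11 genes, and 11 of these sites lay inside the gene. Of the sites in 2 lists, 25 were shared by WT 2 and GF 1, 4 by WT 1 and WT 2, 1 by WT 1 and GF 1 and 1 by GF 1 and GF 2. Seen from the summits, 19 of the 23 at members in WT 1 (82.6%) had a WT 2 summit within 200 bp, against 70.6% at other genes, and 15 (65.2%) had a GF 1 summit, against 66.7%. In the other direction the members were lower. Of the 72 in WT 2, 19 (26.4%) had a WT 1 summit within 200 bp, against 37.4%, and of the 58 in GF 1, 15 (25.9%), against 41.8%. Of the same 58, 40 (69.0%) had a WT 2 summit within 200 bp, against 67.6%, and 2 (3.45%) a GF 2 summit, against 1.94%. The pair that shared most sites, WT 2 and GF 1, were the longest lists and of different genotype.

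The comparison of genotypes rests on 2 lists each. With all peaks the GF lists reached 29 and 4 members and the WT lists 16 and 30, so the groups overlapped. At 905 peaks per list the GF lists reached 1 and 4 members and the WT lists none, so the groups did not overlap. Other genes showed the same order, with 4.55% and 5.45% reached in GF against 3.82% and 4.02% in WT. The gap between the GF lists at members was larger than that from GF 1 to either WT list. The separation at 905 peaks also depended on the setting. With the nearest gene only, the GF lists reached 0 and 1 members and the WT lists 0 and 0, so the groups met. The shares of other genes were then 3.43% and 3.35% in GF and 2.99% and 3.16% in WT. Within gene bodies every list reached 0 members. A single value in 2 lists against 2 can give a two-sided exact permutation p no smaller than 0.33, so no such test could pass. The labels name 2 replicates per genotype without saying that they were grown apart, and the spread between them may be technical.

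Other genes of protein synthesis were placed beside the synthetases. Of 38 cytosolic initiation and elongation factor genes, the WT lists reached 27 (71.1%) and 32 (84.2%), and the GF lists 29 (76.3%) and 8 (21.1%). The shares over genes other than the synthetases were 47.3%, 70.9%, 64.0% and 5.45%, as above. Those 8 were reached in all 4 lists, as were 3.84% of the genes other than the synthetases: eef-1A.1, eef-1G, eef-2, eif-1.A, eif-2Bgamma, eif-3.C, ife-1 and iff-1. The gene eef-1A.1, for the factor that brings charged tRNA to the ribosome, had folds of 1.97, 2.56, 3.27 and 2.18. The gene eef-2, for the translocation factor, had 1.52, 1.87, 2.31 and 1.60, and eif-2Bgamma, for a subunit of the exchange factor of eIF2, had 1.90, 1.97, 2.75 and 2.06. In each list eef-1A.1 stood above every synthetase gene. Of 11 mitochondrial translation symbols 5 were in the gene table, and 2, 3, 4 and 1 of them (40.0%, 60.0%, 80.0% and 20.0%) were reached, too few to set against those shares. Of 8 symbols from the response to amino acid shortage, asparagine synthesis and tRNA ligation, 7 were in the table, and 5, 7, 4 and 1 of them (71.4%, 100%, 57.1% and 14.3%) were reached, also a small number. Among them gcn-1, for an activator of the eIF2 kinase GCN2, had folds of 2.29, 2.31 and 2.33 in the long lists and no summit in GF 2. Asparagine synthetase gene asns-1 had 1.39, 1.63 and 1.83, and atf-4, for the transcription factor of that response, had 1.55 in WT 2 and 1.54 in GF 2 only.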

How the data were processed

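Peak lists of the 4 precipitated samples were used, grouped by title and genotype. The authors deposited 1 narrowPeak list per sample, so peaks were not called on pooled samples. The submitters' processing notes name MACS2 2.2.7.1, SAMtools 1.10, BWA 0.7.17, Trim Galore 0.6.4 and build ce10, with no settings. The caller's control sample is not stated. For each peak the authors deposited a fold enrichment, which is a ratio over background. They also deposited the significance of each peak as -log10 p and -log10 q, the latter repeated as a score of 10 times its size. The lowest -log10 q was 1.30 to 1.32 in these lists. The files carry no read counts, so depth is unknown, and no interval for counting reads can be given.

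Python 3.11.15, NumPy 2.4.6, pandas 2.3.3 and SciPy 1.17.1 were used, with matplotlib 3.10.9 for drawing. Symbols, gene types and gene ends came from a RefSeq table of WBcel235, which has no strand. Its coordinates were used only to find neighbours and are not printed, and summits were also moved by 100 bp either way. A summit (peak start plus offset) in a protein-coding gene or within 1000 bp reached the gene, and 1 summit could reach several genes. Other genes in length classes were weighted to the members' spread over 10 classes of gene length. Folds were ranked only within a list, and values of several lists stand side by side as a description. The step was tested on simulated summits placed at known distances. The members and lists were chosen with earlier results of these data known, and no test was made over them. Named were members in all 4 lists, in both lists of 1 genotype alone, in no list, among the 5 highest folds of a list or nearest to the window's edge, and the others by their counts. Genes of protein synthesis outside this rule were named with their values seen. Alternatives were other windows, peak overlap, moved summits, -log10 q of at least 5, fold of at least 2, shorter lists, the nearest gene only, length classes and leaving out each list. Comparing with other genes on autosomes only was added after seeing the data.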

Additional observations from a re-analysis of the deposited data

How the results depend on the processing

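No paired analysis was possible because the results come from no test. Values in this paragraph are counts of the 33 members unless a fold is named. With a window of 500 bp, GF 2 reached 2, also at equal list length, all 4 lists shared 1, and both WT lists without GF held 0. That last count was also 0 with 2000 bp, any peak overlap and summits moved 100 bp up, and GF 1 at equal length reached 2 with 2000 bp. Within gene bodies WT 1 reached 10 and GF 2 0, the 3 long lists shared 8, all 4 lists and both WT lists without GF held 0, and both GF lists at equal length reached 0. With the nearest gene only, WT 1 reached 10, GF 2 1, all 4 lists 1, both WT lists without GF 0, and GF 1 and GF 2 at equal length 0 and 1. Requiring a -log10 q of 5 or more, WT 1 reached 9 and GF 1 18, the 3 long lists shared 8, and both WT lists without GF held 0. With a fold of at least 2, WT 1, WT 2, GF 1 and GF 2 reached 0, 0, 3 and 0 (GF 2 at equal length also 0), the 3 long lists, all 4 lists and both WT lists without GF held 0, and the median fold in GF 1 was 2.16. Over the strongest 5000 peaks WT 1, WT 2 and GF 1 reached 4, 4 and 6, the 3 long lists shared 2 and all 4 lists 1, with median folds of 1.58, 1.79 and 1.93. Shortened by fold or by -log10 q to 905 peaks, WT 1, WT 2 and GF 1 reached 0, 0 and 1, the shared counts were 0, both GF lists without WT held 1 (iars-2), both WT lists without GF held 0, and the median fold in GF 1 was 2.32. Leaving out 1 list moved the count for all lists between 3 and 15 (15 without GF 2, 45.5% against 41.4% of other genes). The count for the long lists moved between 15 and 28 (28 without WT 1, 84.8% against 58.2%). That for WT alone moved between 1 and 13 (13 without GF 1, 39.4% against 40.3%). For GF alone it moved between 0 and 1, where 1 (3.03%) stood against 0.963% without WT 2 and 4.25% without GF 2. Against other genes, the members' share was lower in WT 1 under 12 of 15 settings, in WT 2 under 4, in GF 1 under 3 and in GF 2 under 3. These 15 include the setting used above, under which the share was lower in no list. The difference ran from -8.77 to 2.98 percentage points in WT 1, -8.08 to 24.5 in WT 2, -2.44 to 27.1 in GF 1 and -2.66 to 6.73 in GF 2. Comparing with autosomal genes or moving summits by 100 bp changed no other count by over 1.5 times. Unknown depth, the unequal list lengths and the different builds limit all of these counts.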

Other observations

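Synthetase genes or gene remnants that the symbol pattern does not take as members were also reached. The cars-2 pseudogene, next to cars-1, had 3 summits in WT 1, 4 in WT 2 and 3 in GF 1, with highest folds of 1.54, 1.74 and 1.87, and none in GF 2. The valyl-tRNA synthetase gene glp-4, known for its temperature-sensitive germline mutant, had 2, 5 and 4 summits in these lists, with highest folds of 1.45, 1.64 and 1.87. Its nearest GF 2 summit was 93503 bp away. Both were chosen after their values were seen.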
